A study of Mus musculus with 18 samples.

Results

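Islets lacking TRAF3 in beta cells were compared with islets of floxed littermates on a chow diet, with 3 arrays in each group and 6 of the 18 arrays of the series in all. The arrays were taken by their sample labels: chow TRAF3 knockouts carried TRAF3loxP/loxP alleles and RIPCre, a Cre recombinase under the rat insulin promoter, and chow controls were floxed littermates described as wildtype; which gene was floxed in them, and whether they lacked Cre, was not given. Mice of both sexes on the C57BL/6 background were 16 weeks old, and 250 ng of total islet RNA was labelled with biotin for Affymetrix whole-transcript arrays. Further groups of 3 arrays served for comparison: chow TRAF2 knockouts (RIPCre with TRAF2loxP/loxP), and TRAF3 knockouts and floxed controls given a high-fat diet (HFD, 45% of energy from fat) for 8 weeks from 8 weeks of age. Whether a sample is 1 animal or a pool is not given, so p-values measure the spread between these samples, which may in part be technical. RIP-Cre acts in insulin-expressing cells, whereas the RNA came from whole islets with their other endocrine, vascular and immune cells and adhering exocrine tissue.

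TRAF3 is an adaptor that, together with TRAF2 and the cIAP ubiquitin ligases, keeps NF-kB inducing kinase (NIK) at a low level by marking it for degradation. When this restraint is lost, NIK drives processing of the NF-kB precursor p100, the product of Nfkb2, and RelB dimers enter the nucleus. TRAF3 also takes part in signalling from pattern recognition receptors to type I interferon. The study used both knockouts as models of continuous NIK activity in beta cells. The transcript of TRAF3 itself was not analysed here, so the deletion was not checked on these arrays.

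Values are log2 levels after RMA, 1 probe set per gene, for 22180 genes. A gene is said to have risen or fallen where limma gave an adjusted p (Benjamini-Hochberg, over all genes) under 0.05. In TRAF3 knockout against control islets on chow 2445 genes passed (11.0% of all genes), of which 1405 rose (6.33%) and 1040 fell (4.69%). The rises reached further than the falls: 522 genes rose and 278 fell more than 2-fold, and 35 rose but 1 fell more than 8-fold. The 3 knockout arrays resembled each other more closely than the controls did, with a mean correlation with their own group of 0.9886 to 0.9916 across genes, against 0.9772 to 0.9863. Each of these groups held 1 female and 2 male arrays by Xist and Y-linked transcripts, and 2489 genes passed with a sex score in the fit. Array number limits the precision: 786 genes passed without TRAF3 knockout 3, 1172 without knockout 1, 1117 without control 1 and 1580 without control 2. Of the 178 passing genes that the naming rule took, 104 passed whichever of the 6 arrays was left out, and 23 had a group mean below the median of every array, where the size of a change is uncertain.

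Control arrays 1 and 3 stood apart. Control 1, its group's female array, had the lowest mean level of the ductal markers of the 6 arrays (7.42, against 8.52 and 8.59 in the other controls and 8.96, 8.73 and 9.25 in the knockouts). Control 3 read 8.30 for Tph1, 9.51 for Cldn8 and 7.12 for Lrrc55, against 4.15 and 4.12, 6.05 and 4.79, and 4.94 and 3.53 in the other controls. With the ductal score as a covariate 400 genes passed, 332 of them among the 2445, and the part that ductal RNA has in the other calls was not tested further. In bulk islet RNA, fewer cells of a type and less RNA per cell cannot be told apart.

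**Figure D1:**
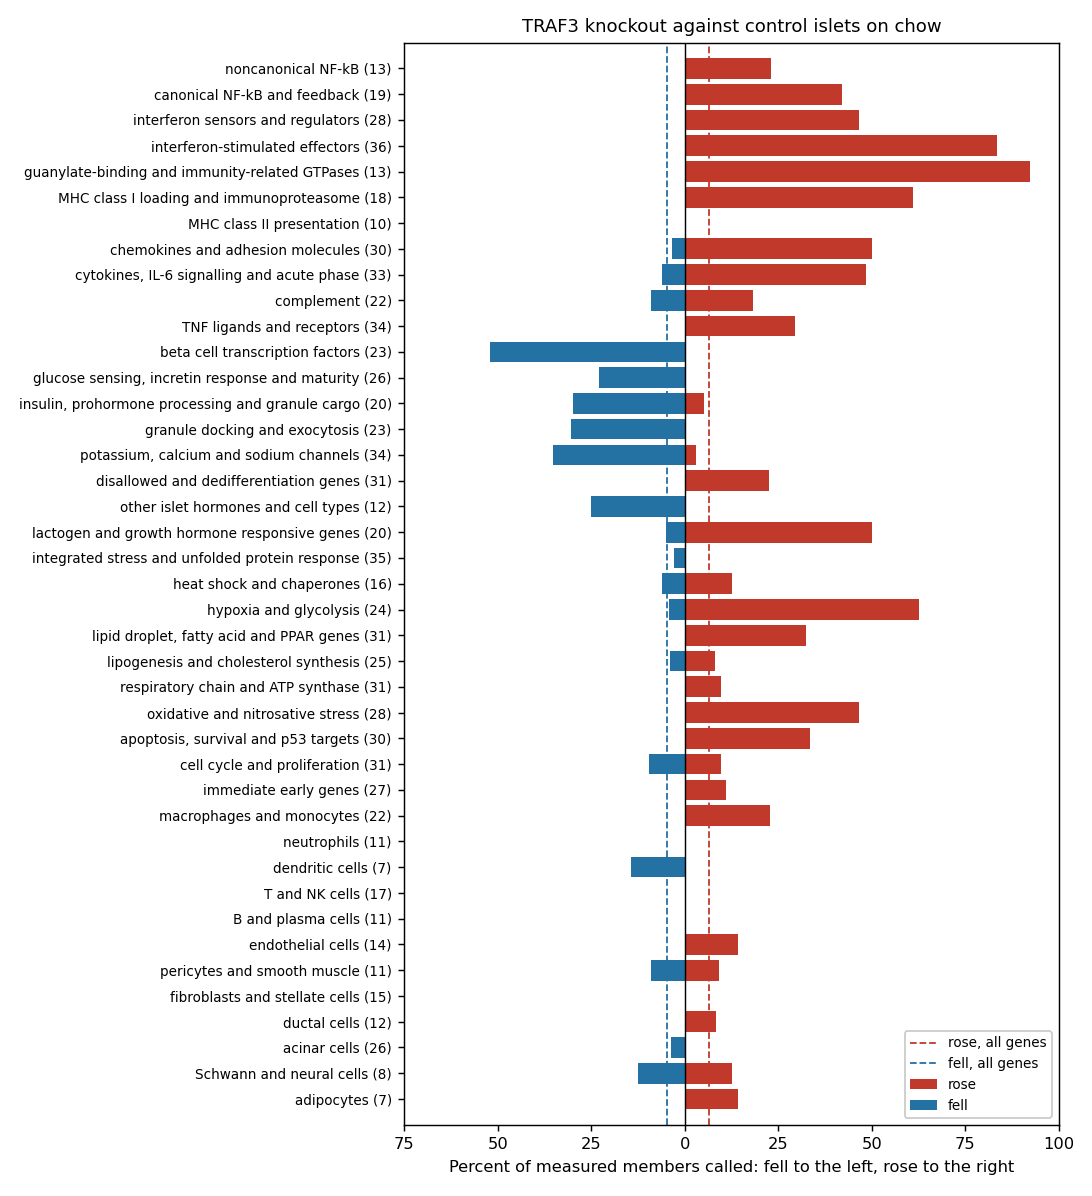
Share of the measured members of each gene list (number in brackets) that rose (red, to the right) or fell (blue, to the left) in TRAF3 knockout against control islets on chow, in percent; dashed lines mark the shares over all genes, 6.33% and 4.69%. The longest red bars belong to the guanylate-binding and immunity-related GTPases (12 of 13) and the interferon-stimulated effectors (30 of 36), and the longest blue bar to the beta cell transcription factors (12 of 23). Lists and members were chosen with earlier results of these data known, so an excess over the dashed lines may in part come from that choice.

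Genes were examined in lists that were chosen with earlier results of these data known. The list counts describe the members and are no independent test. The NF-kB pathway was first examined at its own genes. Of 13 genes of the noncanonical arm, 3 rose and none fell, with a median log2 difference of 0.44 against -0.01 over all genes. Nfkb2 (probe set 17359967), which encodes the p100 precursor on which NIK acts, read 6.16, 7.64 and 7.53 in the controls and 8.58, 8.35 and 8.83 in the knockouts. The groups did not overlap, as held in this direction for 15.9% of all genes, and the rise was 2.78-fold (log2 1.48 ± 0.29 SE, adjusted p = 0.00517). Relb, the partner of processed p100, rose 2.01-fold (adjusted p = 0.00656). Birc3, which encodes the ubiquitin ligase cIAP2 and is itself an NF-kB target, rose from 6.33, 6.94 and 6.88 to 8.48, 8.28 and 8.27, or 3.09-fold (1.63 ± 0.19, adjusted p = 0.000351). Map3k14, the gene of NIK, did not pass, at 5.17, 5.33 and 5.20 in controls and 5.65, 5.75 and 5.48 in knockouts (0.40 ± 0.21, adjusted p = 0.274), nor did Traf2 (0.19 ± 0.15, adjusted p = 0.487).

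Of 19 genes of the canonical arm and its feedback inhibitors, 8 rose and none fell (median 0.63). The largest rises follow, most of them of feedback inhibitors. The A20-binding protein Tnip3 rose 3.17-fold, Tnfaip3, which encodes the deubiquitinating enzyme A20, 2.84-fold, the RNase Zc3h12a 2.72-fold and the nuclear IkB protein Bcl3 2.18-fold. Nfkbia, which encodes IkB-alpha, moved from 8.16, 8.68 and 8.64 to 9.69, 9.46 and 9.46, every knockout array above every control array (2.06-fold, 1.04 ± 0.19, adjusted p = 0.00377). Tnip1 rose 2.04-fold (1.03 ± 0.14, adjusted p = 0.000698). Control 1 was the lowest control array for each of the NF-kB genes that rose and are named here. The calls of Tnip3, Tnfaip3 and Bcl3 were lost without knockout 1 or 3 or control 1, that of Tnip3 also without control 3 and that of Bcl3 without knockout 2, and Bcl3 lay at 0.56 on the log2 scale without control 1. The count of 8 became 4 without knockout 3 or control 1 and 5 without knockout 1, and with the ductal score in the fit 1 canonical gene and 1 noncanonical gene passed.

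Promoters of Nfkb2, Nfkbia and Cxcl3, which rose, are shown because they hold the motif by which NF-kB dimers bind, and do not stand for the NF-kB lists. The 250 bases before the start site are given 5′ to 3′ on the gene's strand, from RefSeq on GRCm38.p6, with each match to GGGA, any 2 bases and TTCC (either strand, the reverse complement being GGAA, any 2 bases and TCCC) in capitals. The Nfkb2 window is chr19:46305445-46305694 (plus strand), at 1 of 3 start sites listed. The Nfkbia window is chr12:55492648-55492897 (minus strand) and that of Cxcl3, a neutrophil chemokine described below, chr5:90785851-90786100 (plus strand).
Nfkb2: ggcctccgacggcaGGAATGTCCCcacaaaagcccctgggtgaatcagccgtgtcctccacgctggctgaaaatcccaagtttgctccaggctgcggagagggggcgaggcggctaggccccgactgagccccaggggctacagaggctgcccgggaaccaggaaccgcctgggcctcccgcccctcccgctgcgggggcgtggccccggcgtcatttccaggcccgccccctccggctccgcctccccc
Nfkbia: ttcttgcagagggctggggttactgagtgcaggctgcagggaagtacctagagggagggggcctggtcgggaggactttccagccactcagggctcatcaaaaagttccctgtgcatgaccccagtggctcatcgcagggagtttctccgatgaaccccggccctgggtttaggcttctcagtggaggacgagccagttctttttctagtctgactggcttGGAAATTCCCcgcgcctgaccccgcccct
Cxcl3: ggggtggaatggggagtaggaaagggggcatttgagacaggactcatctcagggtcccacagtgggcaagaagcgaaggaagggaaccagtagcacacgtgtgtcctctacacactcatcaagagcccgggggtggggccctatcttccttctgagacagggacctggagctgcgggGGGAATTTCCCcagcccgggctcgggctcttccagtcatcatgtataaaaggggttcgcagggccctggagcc
Both matches in Cxcl3 overlap, since the site reads as the motif on either strand with a shift of 1 base. Windows of 300 bases, which run to 50 bases past the start site, were found for 16990 of the genes tested, matched by symbol or gene identifier. Among these the motif was present in at least 1 window of 278 genes (1.64%). It was present for 29 of 1124 genes that rose (2.58%), for 18 of 398 that rose more than 2-fold (4.52%) and for 9 of 817 that fell (1.10%). By list it was present for 1 of the 10 noncanonical genes with a promoter (Nfkb2) and for 2 of 17 canonical genes (Cyld and Nfkbia). Of 21 chemokine and adhesion genes 5 held it. A match is a match of letters and says nothing of binding in these islets.

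Interferon genes were examined from the sensors and regulators to the effectors. Of 28 sensors and regulators of the interferon response 13 rose and none fell (median 0.66). Irf7 (probe set 17497813), the transcription factor that amplifies type I interferon production, read 6.44, 6.91 and 6.69 in controls and 11.03, 10.99 and 11.08 in knockouts. Stat2 and Irf9, which carry the interferon signal to the nucleus, rose 3.52-fold and 3.66-fold. The cytosolic RNA sensor Ifih1 (MDA5) rose 2.77-fold and its relative Dhx58 (LGP2) 6.79-fold. Usp18, which removes ISG15 from proteins and dampens the interferon receptor, read 9.54, 10.05 and 9.58 in controls and had a mean of 11.92 ± 0.070 (SD, n = 3) in knockouts, none below 11.88 (4.59-fold, 2.20 ± 0.20, adjusted p = 5.93e-05). Transcripts of the interferon gene Ifnb1 were low in both groups, at 2.79, 2.87 and 3.24 in controls and 2.70, 2.84 and 2.72 in knockouts (adjusted p = 0.47).

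Of 36 interferon-stimulated effectors 30 rose and none fell, with a median log2 difference of 1.71. In 33 of the 36 all knockout arrays lay above all controls, as held for 15.9% of all genes. Zbp1, a sensor of Z-form nucleic acid, read 5.22, 5.01 and 5.02 in controls and 9.33, 9.04 and 9.25 in knockouts (17.4-fold, 4.12 ± 0.61, adjusted p = 0.00116). Bst2, the tetherin that holds budding virus at the cell surface, moved from 5.34, 5.14 and 5.90 to 9.06, 9.02 and 9.24. Among the oligoadenylate synthetases, which activate the antiviral RNase L, Oas1g rose 9.68-fold and Oas2 9.23-fold. The chaperone gene Rtp4 rose 8.01-fold and the apoptosis factor Xaf1 7.67-fold. In all 6 of these genes, which were named for the size of their change, every knockout array lay above every control.

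Of 13 guanylate-binding proteins and immunity-related GTPases, enzymes that attack vacuoles of intracellular pathogens, 12 rose (median 1.98). Gbp3 read 3.26, 3.97 and 3.59 in controls and 7.14, 6.91 and 7.14 in knockouts (3.45 on the log2 scale). Gbp10 rose 6.62-fold, Gbp4 5.43-fold, Iigp1 5.37-fold, Gbp9 4.30-fold and Igtp 4.24-fold. These genes, like the Oas1 and MHC class I genes, are families of close copies whose probe sets can read each other's transcripts. With the ductal score in the fit 7 of the sensors and regulators, 20 of the effectors and 8 of the GTPases passed, and 8 GTPases rose without knockout 1 or 3 or control 1.

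**Figure D2:**
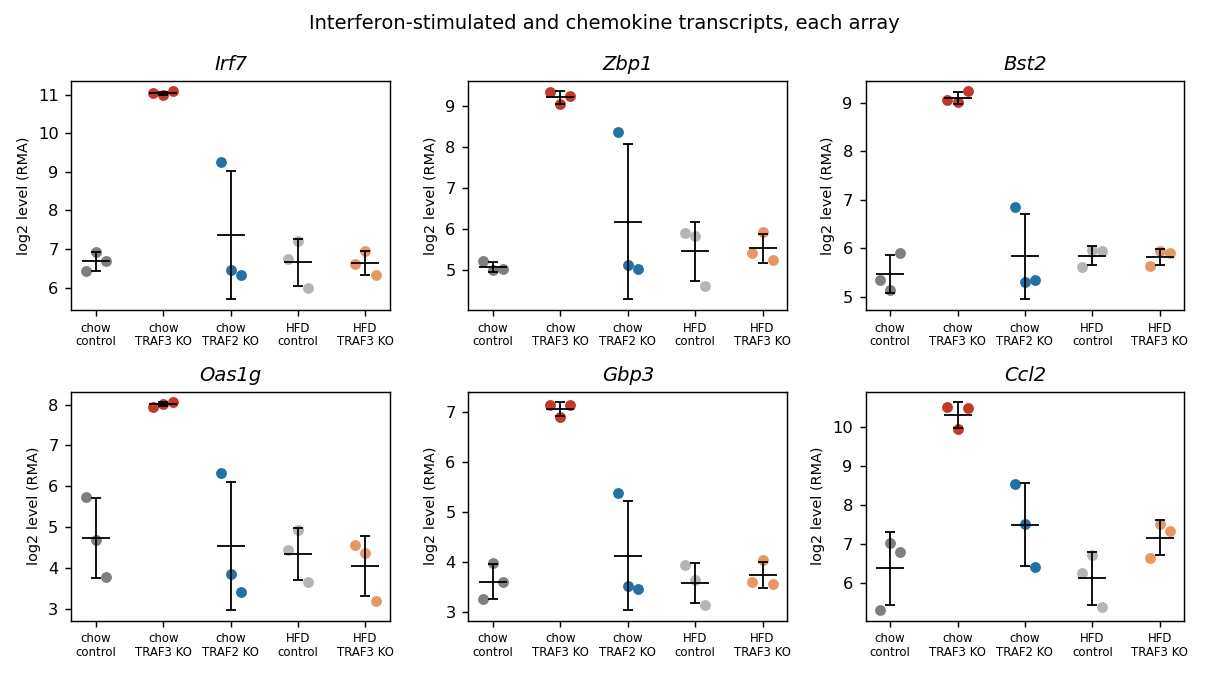
Log2 level of 4 interferon-stimulated effectors and GTPases (Zbp1, Bst2, Oas1g, Gbp3), the regulator Irf7 and the chemokine Ccl2 in each array of 5 groups; bars give the mean and SD of 3 arrays. Every chow TRAF3 knockout array sits above every array of the other groups, at 10.99 to 11.08 for Irf7, while among the chow TRAF2 knockouts array 1 reads 9.26 and the others 6.46 and 6.33.

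Antigen presentation was examined by class. Of 18 genes of MHC class I loading and the immunoproteasome 11 rose and none fell (median 0.95). The peptide transporter subunits Tap1 and Tap2 rose 5.72-fold and 2.43-fold, and the nonclassical class I gene H2-T23 5.02-fold, from 7.35, 7.38 and 6.99 to 9.51, 9.76 and 9.44. The immunoproteasome subunits Psmb8 and Psmb10 rose 3.07-fold and 2.56-fold, and H2-Q4 2.45-fold by 1 probe set and 0.38 on the log2 scale by its other, which did not pass. The call of Psmb10 was lost without knockout 3 or control 1. Among 10 genes of MHC class II presentation none rose or fell (median -0.28). In this list 1 gene rose after a further quantile normalisation, 1 with the replicate block and 1 with the compared arrays alone, and 1 fell with the compared arrays alone and 1 with the acinar score. H2-Aa read 9.13, 9.03 and 8.91 in controls and 8.82, 8.37 and 8.41 in knockouts (adjusted p = 0.281) and H2-Ab1 lay 0.57 lower in the knockouts (adjusted p = 0.315). Class II is carried mainly by professional antigen-presenting cells.

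Promoters with the interferon-stimulated response element, a site bound by interferon regulatory factors, are shown for 1 effector, 1 GTPase and 1 class I gene. Matches to GAAA, any 2 bases and GAAA, or on the other strand TTTC, any 2 bases and TTTC, are in capitals in the 250 bases before the start site. The windows are chr8:71537473-71537722 (minus strand) for Bst2, chr11:58199306-58199555 (plus strand) for Igtp and chr17:36032702-36032951 (minus strand) for H2-T23.
Bst2: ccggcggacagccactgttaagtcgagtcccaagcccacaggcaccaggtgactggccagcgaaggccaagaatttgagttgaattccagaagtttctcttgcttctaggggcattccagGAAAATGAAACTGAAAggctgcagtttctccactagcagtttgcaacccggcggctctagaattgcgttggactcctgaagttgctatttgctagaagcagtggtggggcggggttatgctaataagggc
Igtp: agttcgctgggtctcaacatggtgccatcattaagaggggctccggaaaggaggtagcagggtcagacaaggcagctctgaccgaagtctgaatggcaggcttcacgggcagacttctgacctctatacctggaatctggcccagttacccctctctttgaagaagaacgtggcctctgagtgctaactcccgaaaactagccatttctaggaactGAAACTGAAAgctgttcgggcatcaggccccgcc
H2-T23: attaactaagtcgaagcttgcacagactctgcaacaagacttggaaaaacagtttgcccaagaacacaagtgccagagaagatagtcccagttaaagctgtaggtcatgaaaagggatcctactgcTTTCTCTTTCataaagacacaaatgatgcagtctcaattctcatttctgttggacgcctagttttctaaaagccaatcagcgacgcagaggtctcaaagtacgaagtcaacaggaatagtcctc
In Bst2 the capitals are 2 matches that overlap by 4 bases. Over the 300-base windows the element was present for 657 of 16990 genes tested (3.87%), for 78 of 1124 that rose (6.94%), for 52 of 398 that rose more than 2-fold (13.1%) and for 18 of 817 that fell (2.20%). By list it was present for 12 of the 27 effectors with a promoter, for 6 of 6 GTPases (Gbp3, Gbp5, Gbp7, Igtp, Irgm1 and Irgm2), for 4 of 15 class I genes and for 1 of 20 beta cell transcription factors.

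Secreted inflammatory signals rose as well. Of 30 chemokines and adhesion molecules 15 rose and 1 fell (median 1.00). The monocyte attractants Ccl2 and Ccl7 rose 15.1-fold and 9.96-fold, Ccl2 from 5.32, 7.04 and 6.80 to 10.50, 9.93 and 10.49. Ccl5, which draws T cells and monocytes, read 5.86, 7.13 and 6.16 in controls and 10.20, 10.14 and 10.20 in knockouts. The neutrophil attractant Cxcl3 rose by 4.17 on the log2 scale. Another, Cxcl5, rose 8.15-fold and Ccl3 7.19-fold (2.23 on the log2 scale without control 1, 2.85 with it). Cxcl10, an interferon-induced chemokine, read 4.42 in control 1, 7.73 and 8.17 in the others and 9.02, 8.92 and 9.11 in knockouts, and its difference of 2.25 ± 0.76 did not pass (adjusted p = 0.071).

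Of 33 cytokine, interleukin-6 pathway and acute phase genes 16 rose and 2 fell (median 0.88). Il6 (probe set 17435725), the cytokine that induces acute phase proteins, read 2.97, 5.63 and 5.45 in controls and 9.52, 7.93 and 9.37 in knockouts. The fold change was 19.1 and the log2 difference 4.26 ± 0.66 (adjusted p = 0.00152), or 3.40 without control 1. Serpina3n, an acute phase protease inhibitor, rose by 4.53 on the log2 scale, the largest rise of all genes tested (3.94 without control 1). Fibrinogen chains, made by liver in the acute phase, rose too: Fgg from 2.97, 3.22 and 3.55 to 8.12, 6.38 and 7.29, and Fgb 6.87-fold (2.06 on the log2 scale without control 1, 2.78 with it). Steap4, a metalloreductase induced by inflammatory cytokines, rose 15.1-fold, and Lcn2, the siderophore-binding lipocalin, 5.96-fold but not without either knockout 1 or 3 or control 1 or 3 (1.89 on the log2 scale without control 1 and 3.34 without control 2). Single arrays bore on both counts: 8 chemokine and adhesion genes rose without knockout 1 or 3 or control 1, and 8 cytokine genes without knockout 1 or 3 and 9 without control 1. With the ductal score in the fit 5 and 3 rose.

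Complement genes went in both directions. Of 22 measured, 4 rose and 2 fell. Cfb, the protease of the alternative pathway, rose from 5.09, 4.83 and 5.51 to 8.47, 7.89 and 8.41 (8.66-fold, 3.12 ± 0.52, adjusted p = 0.00233). The C3a and C5a receptors C3ar1 and C5ar1 and the C1 inhibitor Serping1 rose 3.92-fold, 2.01-fold and 2.64-fold. The call of C5ar1 was lost without any 1 of the 6 arrays and that of Serping1 without knockout 1 or 3. C8b, a subunit of the membrane attack complex, fell by 2.21 ± 0.29 (adjusted p = 0.000693), and Cd59a, which blocks that complex, fell by 1.52 ± 0.29 (adjusted p = 0.00485). Of 34 tumour necrosis factor ligands and receptors 10 rose and none fell. Eda2r, the ectodysplasin A2 receptor, rose 5.47-fold, the decoy receptor gene Tnfrsf23 4.05-fold, Tnfrsf9 (4-1BB) 3.81-fold and the TRAIL receptor Tnfrsf10b 3.47-fold. Tnfrsf9 read 5.82, 6.56 and 7.21 in controls and 8.50, 8.62 and 8.27 in knockouts, with no overlap. The call of Tnfrsf10b was lost without knockout 1 or 3 or control 1. The TNF list had 6 rises without any 1 of those arrays, and the complement list 2 without knockout 1 or 3. In the fit with the ductal score 2 TNF genes rose, and 1 complement gene rose and 1 fell.

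Markers of immune cells moved with genotype in part. Of 22 macrophage and monocyte markers 5 rose and none fell (median 0.67), and the mean level of the list was 5.70, 5.73 and 5.67 in controls and 6.76, 6.38 and 6.62 in knockouts. Cd68, a lysosomal protein of phagocytes, rose from 7.17, 7.89 and 7.62 to 10.05, 10.12 and 10.02 (5.69-fold, adjusted p = 0.00292), Fcgr1, the high-affinity IgG receptor and an interferon-induced gene, 5.35-fold, the lipopolysaccharide co-receptor Cd14 4.07-fold (1.16 on the log2 scale without control 1 and 2.67 without control 2, against 2.03), the perforin-like Mpeg1 3.59-fold and the Fc receptor chain Fcer1g 2.43-fold. The call of Cd14 was lost without knockout 1 or 3 or control 1, and that of Mpeg1 without any 1 of the arrays other than knockout 2. Without knockout 1 or 3 or control 1 there were 3 rises, and 9 with the compared arrays alone and 3 with the ductal score. Over the whole list 18 markers lay higher in the knockouts on average and 4 lower. Among the markers that did not pass, Csf1r read 6.99, 6.85 and 6.52 in controls and 6.82, 6.76 and 6.62 in knockouts. Cx3cr1 lay at -0.44 ± 0.31 and Adgre1 (F4/80) at 0.73 ± 0.33 on the log2 scale. These receptors were picked after their values were seen and do not stand for the list. Ms4a6d and Gpnmb, both known from macrophages, were among the largest rises, at 16.2-fold and 16.0-fold. The part that macrophage RNA has in the inflammatory rises was not tested.

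Of 11 neutrophil markers, 17 T and NK cell markers, 11 B and plasma cell markers and 15 fibroblast markers none passed in either direction. Under other settings 1 neutrophil marker rose (a further quantile normalisation, the acinar score, or the fit without knockout 2), 1 T and NK marker with the compared arrays alone, and 1 fibroblast marker with the compared arrays alone and with the replicate block. Of 7 dendritic cell markers Siglech fell, by 0.68; of 14 endothelial markers Cldn5 and Egfl7 rose; of 11 pericyte and smooth muscle markers Kcnj8 rose and Rgs5 fell; of 8 Schwann and neural markers Ngfr rose and Scn7a fell; and of 7 adipocyte markers Fabp4 rose. These calls were lost without knockout 3 except that of Ngfr, and all but those of Fabp4 and Ngfr were lost without at least 2 further arrays. Cd3e read 5.43, 4.61 and 4.98 in controls and 6.39, 5.16 and 6.01 in knockouts (adjusted p = 0.662), and Cd79b 6.20, 5.04 and 5.29 against 7.91, 5.20 and 7.05 (adjusted p = 0.602). Knockout 2 was the lowest knockout array for both, and for the mean of B and plasma cell markers it read 4.80 against 6.51 and 6.05. At an unadjusted p under 0.05, 5366 of all genes passed. Of 12 ductal markers 1 rose, the annexin Anxa3 (6.52-fold), while Krt19 read 5.42, 7.61 and 8.11 in controls and 8.94, 8.35 and 9.46 in knockouts (adjusted p = 0.136). Krt20, a keratin of gut and duct epithelium, rose 18.2-fold but did not pass without knockout 3 (3.77 on the log2 scale, against 4.19). Of 26 acinar markers 1 fell, the serpin Serpini2, by 3.96 ± 1.15 (adjusted p = 0.038), a call that was lost without any 1 of the 6 arrays.

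**Figure D3:**
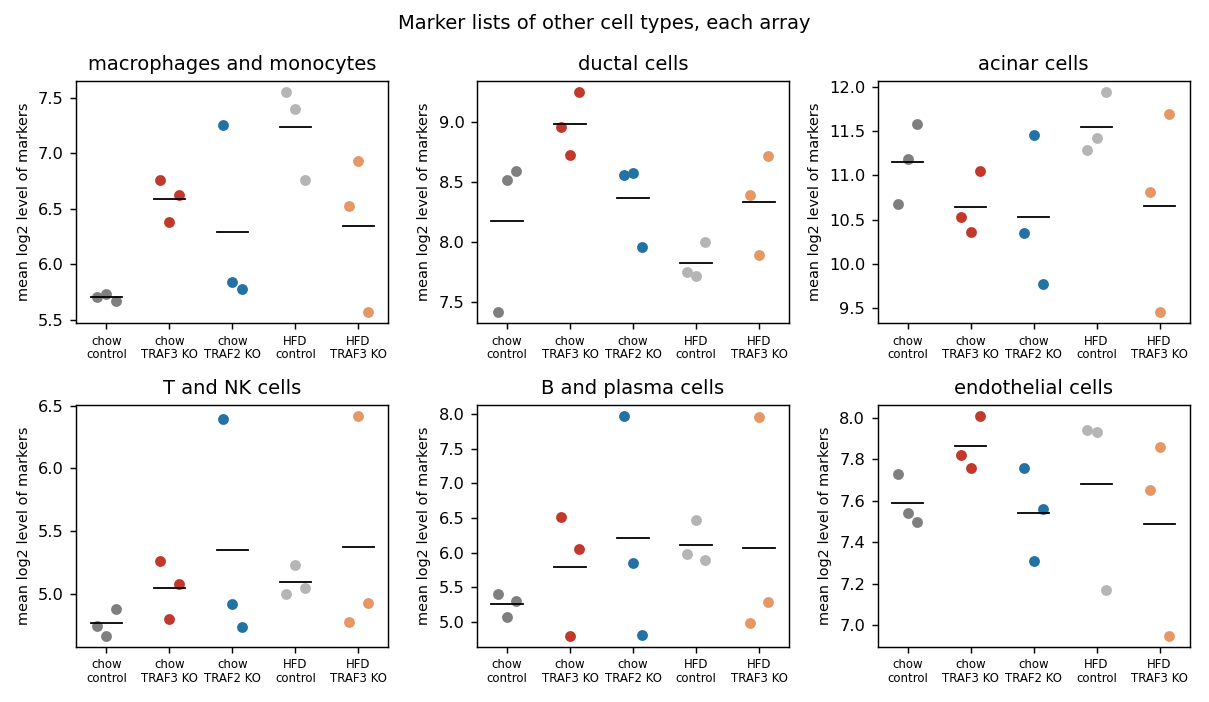
Mean log2 level of the markers of 6 other cell types in each array of 5 groups; the line is the mean of 3 arrays. Macrophage markers lie at 6.38 to 6.76 in chow TRAF3 knockouts against 5.67 to 5.73 in chow controls, and chow control 1 is the lowest ductal array at 7.42.

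Beta cell identity genes fell. Of 23 transcription factors that make and maintain beta cells none rose and 12 fell, with a median of -0.75. Mafa, the activator of the insulin gene in mature beta cells, read 9.40, 9.68 and 9.11 in controls and 7.49, 8.11 and 6.81 in knockouts. Pdx1, required for pancreas formation and beta cell maintenance, fell from 9.57, 9.41 and 9.05 to 7.89, 8.44 and 7.49 (by 1.41 ± 0.25 on the log2 scale, adjusted p = 0.00341). Nkx6-1, which keeps beta cells from other islet fates, fell from 10.71, 10.40 and 9.96 to 8.92, 9.22 and 8.54 (by 1.47 ± 0.28, adjusted p = 0.00461). In all 3 genes every knockout array was below every control array, as held in this direction for 15.1% of all genes.

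Mlxipl, which encodes the glucose-responsive factor ChREBP, fell by 2.37 ± 0.43, the largest fall of the list, from 11.10, 9.69 and 9.32 to 7.36, 8.20 and 7.44. Foxo1 fell by 0.96 (its other probe set differed by -0.02 and did not pass) and Nkx2-2 by 0.94. Not all factors passed: Neurod1 read 6.28, 6.59 and 6.37 in controls and 6.48, 6.38 and 6.36 in knockouts (adjusted p = 0.99), and Isl1, low in knockout 3 and high in control 1, differed by -0.45 ± 0.23 (adjusted p = 0.258). The call of Nkx2-2 was lost without knockout 1 or 3 or control 1 or 2. The count of falls was 8 without knockout 3 or control 2, 2 with the ductal score in the fit, and 15 with the acinar score, where 1 factor rose.

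Of 26 genes of glucose sensing, incretin response and maturity 6 fell and none rose (median -0.39). Slc2a2, which encodes the glucose transporter GLUT2, read 11.99, 11.23 and 10.93 in controls and 8.20, 9.05 and 7.99 in knockouts. Ppp1r1a, a phosphatase inhibitor of the cAMP pathway, fell by 2.02 ± 0.35 from 10.76, 10.08 and 9.96 to 8.10, 8.79 and 7.84 (adjusted p = 0.00292). The zinc transporter gene Slc30a8, which loads zinc into insulin granules, fell by 1.98, the maturity hormone gene Ucn3 by 2.04 and the mitochondrial shuttle enzyme Gpd2 by 0.55. Glp1r, the incretin receptor, fell by 0.54 ± 0.15, and this call and that of Gpd2 were each lost without 4 or more of the 6 arrays taken singly.

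Of 20 genes of insulin, prohormone processing and granule cargo 6 fell and 1 rose. Ins2 read 11.88, 12.07 and 11.84 in controls and 11.28, 11.50 and 11.01 in knockouts (0.67 lower, adjusted p = 0.0218, lost without knockout 1 or 3 or control 1 or 2), and Iapp, secreted with insulin, differed by -0.13 ± 0.09 (adjusted p = 0.473). Sytl4 (granuphilin), which docks insulin granules, fell by 1.19, Pcsk1n, an inhibitor of prohormone convertase, by 1.06 and the granule membrane protein Ptprn2 by 1.04, while the granin Vgf rose 2.06-fold (0.63 on the log2 scale without control 1, against 1.04, and not passing without any 1 of the knockouts or control 1). Of 23 genes of granule docking and exocytosis 7 fell, among them Cadps by 1.39, Rims3 by 1.16, Exph5 by 1.10 and the vesicle GTPase Rab3b by 1.08. All 4 of these calls were lost without knockout 3, those of Cadps, Rims3 and Rab3b without control 1, those of Rims3 and Exph5 without control 2 and those of Cadps and Rims3 without knockout 1.

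Of 34 ion channel and pump genes 12 fell and 1 rose (median -0.63). The potassium channel genes Kcnn3, Kcnh6 and Kcnn2 fell by 1.57, 1.21 and 1.06, and the calcium channel subunit Cacng4 by 0.97. Kcnj11, the pore of the KATP channel, read 8.52, 8.39 and 8.20 in controls and 7.66, 7.94 and 7.29 in knockouts (adjusted p = 0.046), and its partner Abcc8 differed by -0.73 ± 0.28 (adjusted p = 0.104). The gene that rose, Lrrc55, an auxiliary subunit of BK potassium channels, belongs with the lactogen genes described below. The calls of Kcnn3, Kcnh6, Kcnn2 and Cacng4 were lost without knockout 3, and those of Kcnn3 and Kcnh6 also without knockout 1 or control 1. The counts in these lists depended on single arrays. Without knockout 3, 3 granule cargo, 1 exocytosis and 0 channel genes fell, without control 1 these numbers were 3, 2 and 2, without control 2 they were 3, 4 and 4, and without knockout 1 they were 4, 4 and 3. With the ductal score in the fit 1 glucose sensing gene fell and none of the granule, exocytosis and channel genes did. With the acinar score 12 glucose sensing, 11 exocytosis and 21 channel genes fell.

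**Figure D4:**
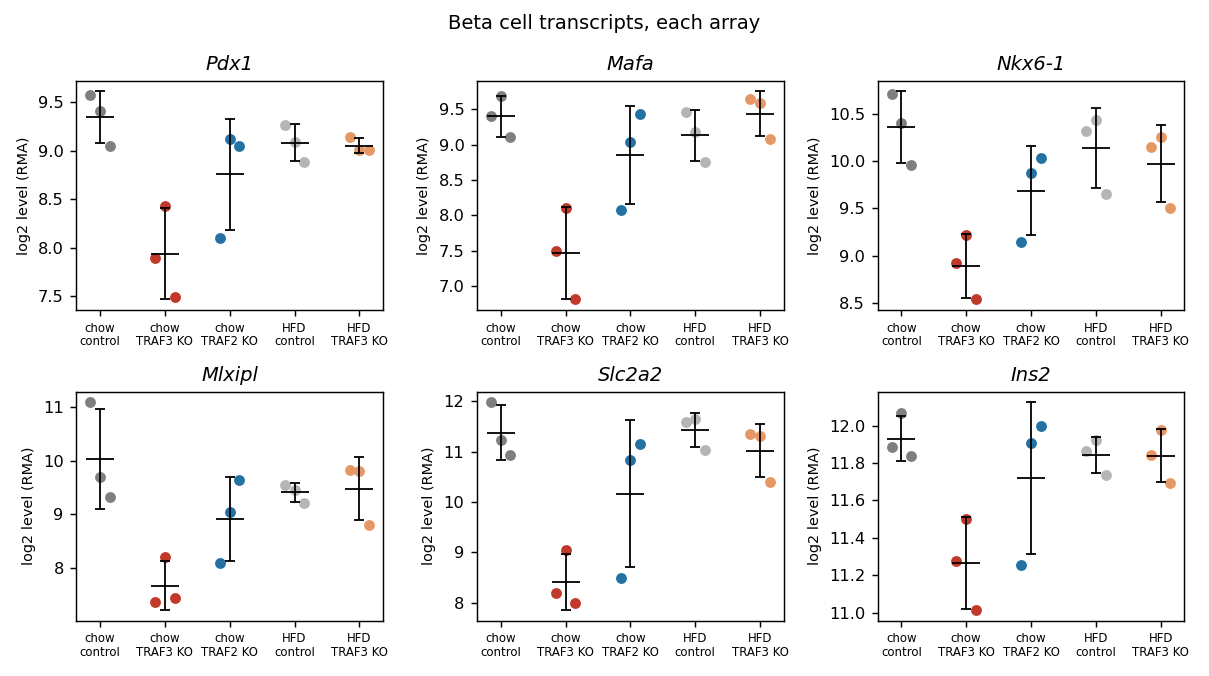
Log2 level of 4 beta cell transcription factors (Pdx1, Mafa, Nkx6-1, Mlxipl), the glucose transporter Slc2a2 and Ins2 in each array of 5 groups; bars give the mean and SD of 3 arrays. Chow TRAF3 knockouts lie below the chow controls for each gene, with Pdx1 at 7.49 to 8.44 against 9.05 to 9.57. For Pdx1 the HFD knockouts lie beside the HFD controls, and the fall of Slc2a2 did not pass the test of a difference between diets.

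Of 12 other islet endocrine genes 3 fell (median -0.45, with all 12 below 0): the arginine transporter Slc7a2, enriched in alpha cells, by 1.16, ghrelin (Ghrl) by 0.90 and transthyretin (Ttr) by 0.87. Glucagon (Gcg) read 13.09, 12.81 and 12.88 in controls and 12.82, 12.78 and 12.70 in knockouts (adjusted p = 0.378), and somatostatin (Sst) differed by -0.47 ± 0.15 (adjusted p = 0.0648). Among 31 genes that beta cells normally keep silent or that mark dedifferentiation, 7 rose and none fell. Slc16a1, the lactate and pyruvate carrier whose silence is a beta cell trait, read 5.10, 6.24 and 6.35 in controls and 8.13, 7.35 and 8.60 in knockouts (4.38-fold). Lactate dehydrogenase (Ldha) rose 2.81-fold, the glutathione transferase Mgst1 2.51-fold and the hexokinase Hk3 1.98-fold. The call of Hk3 was lost without any 1 of the arrays other than control 3, and that of Ghrl without knockout 1 or 3 or control 1. The count of 7 was 3 without knockout 1 and 4 without knockout 3 or control 1 or 2. With the ductal score 1 of these genes rose and 1 fell, and with the acinar score 12 rose. Of the other endocrine genes none fell with the ductal score and 6 with the acinar score.

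Genes that islets switch on in pregnancy through prolactin and growth hormone receptors were examined next. Of 20 measured 10 rose and 1 fell, Stat5b, a transducer of the prolactin receptor (median 1.02). Rasgrp1, a Ras activator, read 4.64, 4.18 and 6.84 in controls and 8.79, 8.11 and 7.99 in knockouts (8.43-fold, 3.07 ± 0.51, adjusted p = 0.00233, or 3.89 without control 3). Lrrc55 rose 7.48-fold (0.48 on the log2 scale by its other probe set, which did not pass). The claudin Cldn8 rose 6.64-fold and Gbp8 3.53-fold, and Fbxw24 3.54-fold. Control 3 read higher than the other controls for all 5 genes: without it the log2 differences were 4.09 for Cldn8, against 2.73, 2.68 for Gbp8, against 1.82, and 3.86 for Lrrc55, against 2.90. Lrrc55 was at 2.07 and Cldn8 at 1.73 without control 2. Tph2, a serotonin synthesis enzyme, rose 2.35-fold, while Tph1 did not pass (1.71 ± 0.88, adjusted p = 0.256). The calls of Cldn8, Gbp8 and Tph2 were lost without any 1 of the arrays other than control 3. The count of 10 was 6 without any 1 of those 5 arrays and with the ductal score. No gene of the list fell without knockout 1, with the compared arrays alone or with the ductal score, and 2 fell with the acinar score.

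Metabolic genes rose in several lists. Of 24 hypoxia and glycolysis genes 15 rose and 1 fell (median 0.95). The macrophage migration inhibitory factor Mif rose 3.29-fold, the ATP-generating enzyme Pgk1 2.42-fold (from 10.10, 10.90 and 10.91 to 11.90, 12.02 and 11.80) and the lactate exporter Slc16a3 2.39-fold. The regulator Pfkfb3 rose 2.46-fold, the glucose transporter Slc2a1 2.83-fold (0.31 on the log2 scale by its other probe set, and 0.88 without control 1) and the carbonic anhydrase Car9 6.08-fold (0.20 by its other probe set). Control 1 was the lowest control array for Mif, Pgk1, Slc16a3, Pfkfb3, Slc2a1 and Car9, and without it 8 hypoxia and glycolysis genes rose. The calls of Slc2a1 and Pfkfb3 were lost without knockout 1 or 3 or control 1, and that of Pfkfb3 without control 2. In this list 5 genes rose and 1 fell with the ductal score.

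Of 31 lipid droplet, fatty acid and PPAR genes 10 rose and none fell. Plin2, the coat protein of lipid droplets, read 7.51, 7.68 and 7.54 in controls and 10.30, 9.87 and 10.44 in knockouts (6.18-fold, 2.63 ± 0.39, adjusted p = 0.00116). The fatty acid binding proteins Fabp5 and Fabp4 rose 7.62-fold and 4.78-fold, and all 4 probe sets of Fabp5 passed. The lipase inhibitor Angptl4 rose 3.70-fold, the fatty acid translocase Cd36 2.66-fold and Plin3 2.47-fold. Fabp4, Cd36 and Fabp5 are also made by macrophages, of whose 22 markers 5 rose (above). The part that macrophage RNA has in the rises of these genes was not tested. The count was 2 without knockout 3, 4 without knockout 1 or control 1, 6 without control 2 and 1 with the ductal score. The calls of Fabp4 and Angptl4 were lost without knockout 3, and those of Cd36 and Plin3 without knockout 1 or 3 or control 1 or 2. Of 25 lipogenesis and cholesterol genes 2 rose (8.0%), near the 6.33% of all genes. In that list 1 gene fell, the elongase Elovl6 by 0.69, a call lost without any 1 of the arrays other than control 1.

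Of 28 oxidative and nitrosative stress genes 13 rose and none fell (median 0.63). Gclc, which makes glutathione, read 8.17, 9.13 and 9.53 in controls and 10.89, 10.89 and 11.20 in knockouts (4.13-fold, adjusted p = 0.00545). Prostaglandin synthase 2 (Ptgs2) rose 12.5-fold (2.80 on the log2 scale without control 1, against 3.65), the haem-degrading enzyme Hmox1 4.03-fold (1.10 without control 1, against 2.01), the NADPH oxidase subunit Cyba 3.28-fold and the quinone reductase Nqo1 3.11-fold. The count of 13 was 5 without control 1, 6 without knockout 1 or 3, 8 with the compared arrays alone and 1 with the ductal score. Without knockout 1 or 3 or control 1 the calls of Hmox1 and Cyba were lost. Of 31 respiratory chain genes 3 rose (9.68%, beside 6.33% of all genes), Cox5a 1.83-fold, Ndufa4 1.52-fold and Cyc1 1.34-fold. The call of Cyc1 was lost without any 1 of the 6 arrays and that of Cox5a without knockout 1 or 3 or control 1. Cox6a2, a subunit isoform of muscle and some islet cells that is outside that list, fell by 2.71 ± 0.60 from 10.53, 9.71 and 9.41 to 7.13, 7.77 and 6.63, a call lost without knockout 3 or control 1.

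Of 35 integrated stress and unfolded protein response genes none rose and 1 fell, the thioredoxin inhibitor Txnip by 0.90 (median of the list -0.08). The call of Txnip was lost without knockout 1 or 2 or control 1 or 3, while 3 genes of the list rose without control 3 and 5 with the acinar score. Ddit3 (CHOP) read 7.62, 8.59 and 8.48 in controls and 8.13, 8.49 and 7.93 in knockouts (adjusted p = 0.973), and Hspa5 (BiP) differed by -0.18 ± 0.16 (adjusted p = 0.598). Of 16 heat shock and chaperone genes Hspa1b and Bag3 rose 3.28-fold and 1.53-fold and Hspa4l fell by 0.53. All 3 calls were lost without knockout 1 or 3, among others, and Bag3 lay at 0.38 on the log2 scale without control 1, against 0.61. Of 30 apoptosis, survival and p53 genes 10 rose and none fell. Mlkl, the executioner of necroptosis, rose from 5.55, 5.85 and 5.97 to 8.57, 8.19 and 8.63 (6.39-fold, 2.68 ± 0.34, adjusted p = 0.000516) and its kinase Ripk3 2.30-fold. The inflammatory caspase Casp4 rose from 3.92, 4.51 and 4.88 to 6.60, 6.05 and 6.66. Its relative Casp1 rose 2.55-fold, the survival gene Bcl2l1 1.85-fold and the cell cycle inhibitor Cdkn1a 2.13-fold. Without control 1 Cdkn1a lay at 0.58 on the log2 scale, against 1.09. The calls of Ripk3, Casp1 and Cdkn1a were lost without knockout 1 or 3 or control 1, and that of Casp1 also without knockout 2 or control 2. The count of 10 was 4 without knockout 3 or control 1, 6 without knockout 1 and 2 with the ductal score.

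Of 31 cell cycle genes 3 rose (Mcm3, Mcm6 and Pcna, of DNA replication, 2.26-fold, 2.08-fold and 1.74-fold) and 3 fell, the cyclins Ccnd1 and Ccnd2 by 0.92 and 0.79 and the inhibitor Cdkn1b by 0.63. Of 27 immediate early genes 3 rose, Ier3 6.21-fold (1.96 on the log2 scale without control 1, against 2.63), Junb 2.14-fold and Dusp6 1.60-fold (0.27 on the log2 scale by its other probe set, which did not pass). The calls of Mcm6, Ccnd2, Cdkn1b, Junb and Dusp6 were lost without knockout 1 or 3 or control 1, and those of Mcm3 and Ccnd1 without knockout 3. When the ductal score was in the fit 1 cell cycle gene rose and none fell, and no immediate early gene passed.

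Outside the lists, the interferon-inducible DNA sensor Ifi204 rose 17.3-fold, from 3.15, 5.05 and 3.78 to 8.24, 7.73 and 8.34. Among the largest falls that passed, Vsnl1, a neuronal calcium sensor, fell by 2.97 from 9.56, 8.45 and 8.15 to 5.65, 6.34 and 5.26. Insrr, an insulin receptor relative that senses alkaline pH, fell by 2.95, the protease Pappa2 by 2.88, the muscle protein gene Ky by 2.48, tenascin-R (Tnr) by 2.42, the potassium channel modulator Dpp10 by 2.32, the amino acid transporter Slc38a5 by 2.21 and the glutamate receptor subunit Gria2 by 2.13. The call of Gria2 was lost without knockout 1 or 3 or control 1 (-1.44 without control 1), and that of Slc38a5 without any 1 of the 6 arrays other than control 2. Plekhh2 fell by 2.24 ± 0.30 (adjusted p = 0.000698) from 8.32, 8.55 and 7.99 to 6.15, 6.25 and 5.73.

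The TRAF2 knockout on chow lacks the partner of TRAF3 in restraining NIK and was compared directly. In the direct test of TRAF3 against TRAF2 knockouts 446 genes passed (2.01%), 319 higher in TRAF3 knockouts (1.44%) and 127 lower (0.573%). Of the interferon-stimulated effectors 23 of 36 were higher in TRAF3 knockouts (median 1.38), as were 8 of 28 sensors and regulators, 5 of 13 GTPases and 6 of 18 class I genes. Apolipoprotein L gene Apol9b read 7.54, 8.01 and 7.69 in TRAF3 knockouts, 3.01 ± 0.26 above the TRAF2 knockouts on the log2 scale (adjusted p = 0.000111). Bst2 was 3.27 higher (adjusted p = 0.000146), at 6.85, 5.30 and 5.33 in the TRAF2 knockouts, and Irf7 3.69 higher. The GABA receptor subunit Gabrp was 3.04 higher (adjusted p = 0.0252) although it did not pass against controls. None of the noncanonical NF-kB genes and 1 of the canonical ones passed between the knockouts: Nfkb2 read 8.31, 7.98 and 7.74 in TRAF2 knockouts, a difference of 0.58 ± 0.29 from TRAF3 knockouts (adjusted p = 0.344).

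Of the 12 beta cell transcription factors that fell against controls, 2 were lower than in TRAF2 knockouts, Mafa by 1.38 (adjusted p = 0.0481) and Foxo1 by 0.74 (adjusted p = 0.0325). Pdx1 read 8.10, 9.12 and 9.05 in TRAF2 knockouts and did not pass (-0.82 ± 0.25, adjusted p = 0.103). Plekhh2, C8b and the ciliary gene Cep290 were lower in TRAF3 knockouts by 2.02, 1.60 and 1.62, as were Cabcoco1 and the potassium channel subunit Kcnab3 by 1.62 and 1.56 and Syt10 by 1.91. Among the lactogen genes, none passed in the direct test. TRAF2 knockouts against the same controls gave 66 genes (0.298%), 62 higher (0.280%) and 4 lower (0.0180%). Since both comparisons use the same controls, the effects are given side by side only: Irf7 4.36 and 0.67, Mafa -1.93 and -0.55, Birc3 1.63 and 0.99 (adjusted p = 0.0375), Rasgrp1 3.07 and 3.16 (adjusted p = 0.0125), for TRAF3 and TRAF2 knockouts.

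TRAF2 knockout 1, the female array of its group, read nearer to the TRAF3 knockouts for many of these genes, with Irf7 at 9.26, Zbp1 at 8.36, Cd68 at 9.98 and Slc2a2 at 8.49, and had the highest B cell and T cell marker means among the chow arrays (7.98 and 6.39). Without it 1708 genes passed in the direct test, against 33 without TRAF2 knockout 3, 53 without TRAF2 knockout 2, 72 without TRAF3 knockout 1, 44 without TRAF3 knockout 3 and 732 without HFD TRAF3 knockout 3, whose spread enters the fit. A fit to these 6 arrays alone passed 3 genes.

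The TRAF3 knockout was also studied on HFD with other samples and other controls. There 560 genes passed (2.52%), 372 higher (1.68%) and 188 lower (0.848%). Of the 2445 genes called on chow 92 were called in the same direction on HFD (3.76% of the chow calls and 16.4% of the HFD calls), 77 rises and 15 falls, and 29 in the opposite direction. The sign was shared for 1219 of the 2445 (49.9%), and the genes that rose by a median of 0.81 on chow had a median of -0.03 on HFD. The difference between the chow and HFD effects was tested as an interaction, which 1287 genes passed (5.80%). Of the 2445 chow calls 847 passed it (34.6%). The interaction uses the same chow arrays that made the chow calls. Its counts among genes called on chow are therefore raised by that selection.

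For many interferon effectors the effect of the knockout differed between the diets. On HFD 1 of 36 effectors rose (median -0.03), and 21 of the 30 that rose on chow passed the interaction. The choice by the chow call raises this share and those that follow. Irf7 read 6.74, 7.22 and 6.00 in HFD controls and 6.61, 6.95 and 6.32 in HFD knockouts (-0.02 ± 0.54, adjusted p = 0.991), and Bst2 lay between 5.61 and 5.96 in all 6 HFD arrays. Of the 11 class I genes that rose on chow 9 passed the interaction, as did 8 of 12 GTPases and 10 of 13 sensors and regulators, beside 34.6% of all chow calls. The 5 of 15 chemokine and adhesion genes and 5 of 16 cytokine genes that passed it lay near that share. Among beta cell genes, 6 of the 12 transcription factors that fell on chow passed the interaction and 1 fell on both diets. The median of the list on HFD was 0.07, with Pdx1 at 9.27, 9.09 and 8.89 in HFD controls and 9.14, 9.01 and 9.01 in HFD knockouts. Of the other falls 2 of 6 glucose sensing, 2 of 6 granule cargo, 3 of 7 exocytosis and 0 of 12 channel genes passed the interaction. The glucose sensing and granule cargo shares lay near the 34.6% of all chow calls. Medians of these lists on HFD were -0.07, -0.04, 0.06 and 0.01. Slc2a2 did not pass the interaction.

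Some NF-kB genes rose on both diets. Nfkb2 read 6.56, 6.55 and 6.20 in HFD controls and 7.94, 8.16 and 7.99 in HFD knockouts, a rise of 1.59 ± 0.29 (adjusted p = 0.00696), beside 1.48 on chow. The 3 noncanonical genes that rose on chow, Nfkb2, Relb and Birc3, all rose on HFD, as did 4 of the 8 canonical genes (Nfkbia 2.34-fold, Tnip1 by 1.03, Tnfaip3 by 1.97 and Bcl3 by 1.67 on the log2 scale), and none of the 13 noncanonical and 1 of the 19 canonical genes passed the interaction, which 5.80% of all genes did. Another 3 canonical genes rose on HFD and not on chow. Of the 10 lactogen genes that rose on chow 8 rose on HFD, where Tph1 was 6.33 ± 0.88 higher (adjusted p = 0.00154) and Rasgrp1 2.93 ± 0.51.

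Some lists had more calls on HFD. Of 27 immediate early genes 21 rose on HFD (median 2.05) and 3 on chow, 2 of them on both diets, with 13 passing the interaction, and of the stress response genes 7 rose on HFD, Ddit3 by 2.24 and Atf4 by 1.03, and none on chow, with 4 of 35 passing the interaction. Macrophage markers had a median of 0.67 on chow and -0.83 on HFD, where 3 fell, and 9 of 22 passed the interaction. HFD controls already read 7.55, 7.40 and 6.76 for the mean of that list, against 5.67 to 5.73 in chow controls, and Cd68 read 9.24, 9.31 and 8.65 in them. The HFD controls were 3 female arrays and the HFD knockouts 2 female and 1 male, so that no male array stood among the HFD controls. The interaction count was 1963 without HFD TRAF3 knockout 3, 414 and 614 without chow TRAF3 knockouts 3 and 1, 714 without chow control 2, 681 without HFD TRAF3 knockout 2, and 851 and 730 without HFD controls 2 and 3.

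**Figure D5:**
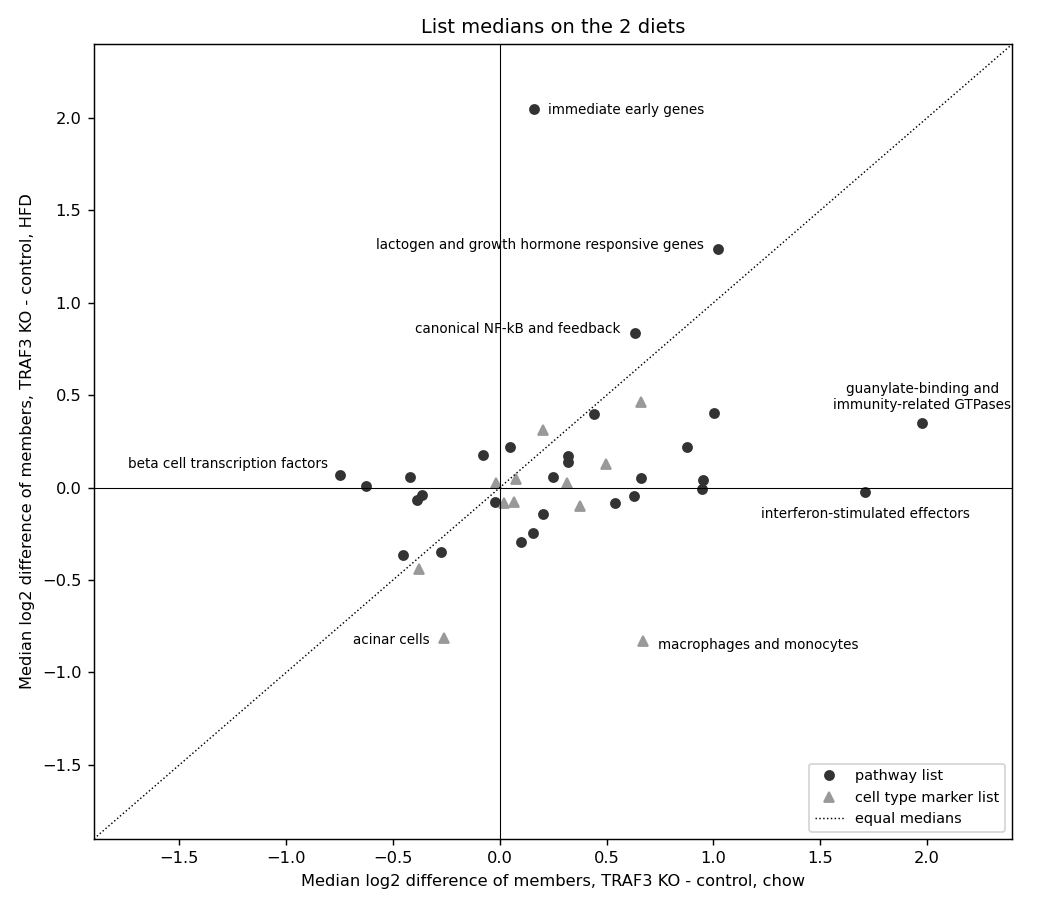
Median log2 difference, TRAF3 knockout minus control, of the members of each list on chow (horizontal) and on HFD (vertical); circles are pathway lists, triangles marker lists, and the dotted line marks equal medians. The interferon-stimulated effectors lie at 1.71 on chow and -0.03 on HFD, the immediate early genes at 0.16 and 2.05, and the lactogen genes near the dotted line at 1.02 and 1.29.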

How the data were processed

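Expression was measured on 18 Affymetrix whole-transcript arrays in 6 groups of 3, of which 6 arrays are compared here. The deposited values are log2 levels made by the authors with RMA, per the submitters' processing notes, which give no version; the genome build and whether all arrays were normalised together are not given in the sources used here. Of 41345 probe sets, 23521 carry 1 gene symbol in the platform annotation, 1814 several and 16010 none. Each gene is its probe set with the highest mean over the 18 arrays, which gave 22180 genes. Array medians ran from 4.80 to 4.96. RMA sets the arrays to a common distribution, so a shift of most genes at once would not show.

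The means of the 6 groups were fitted to all arrays with limma 3.58.1 in R 4.3.3 (12 residual and 3.69 prior degrees of freedom), with 5 contrasts, and p-values were adjusted by the Benjamini-Hochberg method over all genes at a threshold of 0.05. The fit was also run on simulated data with independent noise for each gene and array. Such noise holds no variation shared by the genes of an array, so that run cannot speak to the dependence of the counts on single arrays. Replicate numbers were not treated as pairs. Named genes are the 15 largest rises and falls that passed, up to 6 passing members of each of 41 lists (where no member passed, the first 2 measured), and the 6 largest differences each way against the TRAF2 knockout and between diets; clone names and segment genes are not named. Genes outside this rule (Map3k14, Traf2, Ifnb1, Cxcl10, Neurod1, Isl1, Iapp, Kcnj11, Abcc8, Gcg, Sst, Ddit3, Atf4, Hspa5, Csf1r, Cx3cr1, Adgre1, Krt19, Cd3e, Cd79b, Stat5b and those named only for a promoter match) were chosen after their values were seen. Of 974 list entries 884 were measured. The members and lists were chosen with earlier results of these data known. Alternatives changed the normalisation, variance model, dim-gene filter, probe sets, arrays fitted, threshold and covariates, and left out each array. The transcript of TRAF3 was not analysed here.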

Additional observations from a re-analysis of the deposited data

Results flagged for a closer look

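The effect of TRAF3 loss differed between the diets for 1287 genes by limma's test of the interaction. The values that follow are the chow effect minus the HFD effect on the log2 scale, each with an adjusted p under 0.05. Genes named for their chow effect were chosen on arrays that also enter this difference. Among interferon-related genes the difference was 4.38 for Irf7, 4.05 for Zbp1, 4.85 for Ifi204 and 3.66 for Bst2. Among chemokines it was 3.90 for Cxcl3, 2.88 for Ccl2, 3.37 for Ccl5 and 4.76 for Ccl9, and the platelet chemokine Pf4 had 4.86. Genes known from macrophages gave 5.25 for Ms4a6d, 4.89 for Gpnmb and 4.96 for Retnla, beside macrophage marker means of 6.76 to 7.55 in HFD controls and 5.67 to 5.73 in chow controls. Retnla did not pass on chow (0.50) and was 4.45 lower in the HFD knockouts. Other genes that rose on chow gave 4.41 for Krt20, 3.85 for Fgg and 3.79 for Steap4.

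Among genes that fell on chow the difference was -2.62 for Insrr, -2.41 for Ky, -1.72 for Tnr, -2.44 for Mlxipl, -2.83 for Scel and -1.97 for Plekhh2. The lowest values belonged to genes that did not pass on chow, the activity-dependent factors Fosb (-6.97), Npas4 (-6.45), Atf3 (-4.40) and Nr4a1 (-4.12), with Tph1 at -4.61 and the ciliary gene Rsph4a at -4.60. Fosb, Npas4, Atf3, Nr4a1 and Tph1 rose in the HFD knockouts, by 5.65, 4.64, 4.26, 3.66 and 6.33, and Rsph4a did not pass there (2.65, adjusted p = 0.0521, limma). What these differences rest on was not tested.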

How the results depend on the processing

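The count of 2445 genes on chow stayed within 1.5 times of itself under both other normalisations, the other variance model, the dim-gene filter, every probe set, the compared arrays alone and a sex score. It was 4237 with the acinar score as a covariate, 400 with the ductal score, 810 at a threshold of 0.01 and 302 without chow control 1 and TRAF3 knockout 1 together, and 786 to 3016 with 1 array left out. No log2 fold change of a named gene that passed turned its sign under the alternatives run. Against the TRAF2 knockout the count of 446 was 793 without dim genes, 248 over every probe set, 3 with the compared arrays alone, 891 and 41 with the acinar and ductal scores, 46 at 0.01 and 33 to 1708 with 1 array left out. The diet interaction count of 1287 was 167 at 0.01 and 414 to 1963 with 1 array left out. The 92 genes called on both diets were 56 over every probe set, 21 with the compared arrays alone, 270 and 58 with the acinar and ductal scores, 15 at 0.01 and 40 to 115 with 1 array left out. The causes were not tested. With the replicate number as a block 2590 genes passed on chow, 428 against TRAF2 knockouts and 1366 in the interaction, and 174 of the 178 named calls were kept. Of these 178 calls 64 were kept with the ductal score and 55 without chow control 1 and TRAF3 knockout 1 together. The compared arrays alone kept 148, every probe set 150 and the acinar score 176. Deviations of same-numbered chow controls and TRAF3 knockouts correlated at 0.029, -0.04 and 0.251, and those on HFD at -0.015, 0.407 and 0.493. Array 1 is the female array in each chow group. The labels give no pairing, and the numbers are not treated as pairs. Signal near background limits the 238 called genes with a group mean under 4.80.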
